A study of Homo sapiens with 6 samples.

Results

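The genes described here encode the SR proteins (symbols beginning SRSF), the heterogeneous nuclear ribonucleoproteins (HNRNP), the SF3A and SF3B subunits of the U2 small nuclear ribonucleoprotein and the SNRP proteins of the spliceosomal ribonucleoproteins. They were taken from the array's annotation by symbol alone, keeping probe sets that name a single gene: 106 of 22283 probe sets, for 47 genes. RNA came from the MDA-MB-231 line, human breast cancer cells in long use, mesenchymal in phenotype and without oestrogen receptor. Cells had been electroporated with an siRNA against parathyroid hormone-related protein (siPTHrP) or against luciferase (siLuc) as the control and were collected after 3 days, in 3 independent experiments with 1 array per group each. Each RNA was hybridised to an Affymetrix HG-U133A array, and the values are MAS5 signal intensities on a linear scale.

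Splicing removes introns from precursor mRNA in the spliceosome, which is built from small nuclear ribonucleoproteins, each a small RNA with a ring of Sm proteins and particle-specific proteins. SR proteins bind exonic enhancers and recruit the spliceosome to nearby splice sites, whereas hnRNPs coat nascent transcripts and often repress sites, so the balance between the groups helps to set which exons are kept. Many SR and hnRNP transcripts are themselves alternatively spliced, with isoforms that carry premature stop codons, so that different probe sets of a gene can report different transcripts.

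The siLuc array of experiment 1 stood apart. Its Spearman correlation with the other 5 arrays, across probe sets, was 0.716 to 0.725, against 0.882 to 0.960 among those 5, and its spiked hybridisation controls had a geometric mean of 273058 where the highest of the others was 41429. Results are therefore also given without experiment 1. Of the markers of this cell line VIM, CD44 and AXL were bright on every array (lowest value 8824), whereas SPARC was below the intensity filter described next. CDH1, PGR and EPCAM, and the blood and stromal markers PTPRC, CD3D and LUM, were below it too. The probe sets of ESR1 (154 to 1720) and DCN (177 to 1872) were above it, each with its highest value on the siLuc array of experiment 1. The PTHrP transcript itself was not analysed here. Precision is limited by having 3 arrays per group, and p-values measure only the spread between these samples. In such bulk RNA a change in the number of cells of a kind and in RNA per cell cannot be told apart.

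Signals were compared between siPTHrP and siLuc RNA of the same experiment, the comparison the series was designed for. SR protein genes stood higher with siPTHrP in 20 of 22 probe sets, where 52.5% of all probe sets above the intensity filter did. Their median was 1.34-fold, and this family median was the farthest from that of the whole array. The hnRNP and SNRP families had medians of 1.10-fold each, with members on both sides of no change, and the SF3A and SF3B subunits had a median of 1.00-fold. Among the probe sets with the smallest p-values of each family were SRSF1 and SRSF10 at 1.98-fold and 3.34-fold, HNRNPC and HNRNPA0 at 1.49-fold and 1.47-fold, SNRPB at 1.35-fold and 1 of the probe sets of HNRNPR at 0.610-fold. The SRSF10 value rested on the siLuc array of experiment 1, and its log2 fold change was 1.74 with and 0.48 without that experiment. The brightest probe sets of HNRNPC and HNRNPA0 were others, at -0.027 and -0.034 on the log2 scale. The one of HNRNPA0 was the brighter on average through the siLuc array of experiment 1 (6673). It stood at 0.16 without that experiment. No member passed the threshold. All fold changes divide siPTHrP by siLuc and come from log2(intensity + 16), in a limma model with the experiment as a block, fitted to the 13329 probe sets whose mean intensity was at or above the 40th percentile. That filter kept 97 of the 106 probe sets, from 46 of the 47 genes.

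None of the 97 had a Benjamini-Hochberg adjusted p under 0.05 in limma (smallest 0.328, HNRNPR), where 0% of all probe sets kept were called. At an unadjusted p under 0.05 there were 15 members with higher signal, or 15.5%, and 6.77% of all probe sets were so called. There was 1 with lower signal, where the whole array had 5.36%. The groups of 3 arrays did not overlap for 15 members that were higher and 3 that were lower with siPTHrP, against 8.94% and 9.69% of all probe sets. The sign was the same in all 3 experiments for 29 higher members, or 29.9%, and for 6 lower ones, where 19.1% and 19% of all probe sets had it. The median log2 fold change of the 97 was 0.16, beside 0.030 for all probe sets kept.

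**Figure D1:**
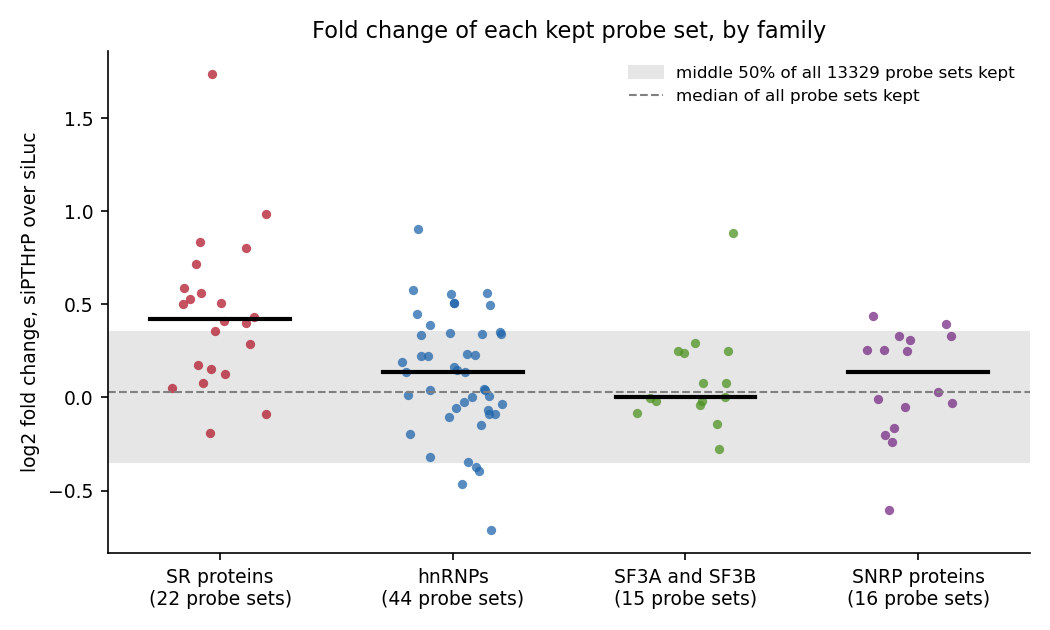
Log2 fold change (siPTHrP over siLuc, vertical axis) of each probe set above the intensity filter, by family; each point is 1 probe set, black bars are family medians, and the grey band and dashed line are the middle 50% and the median of all 13329 probe sets kept. The SR protein median of 0.42 lies above the band, whereas the medians of the other families, 0.14, 0.0042 and 0.14, lie inside it. The band gives the spread of single probe sets, not of medians of sets.

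Signal level and the array that stood apart bear on these medians. In the whole array the median log2 fold change depended on intensity, from -0.26 to 0.15 across 10 equal bins of the probe sets kept, and it was 0.12 in the brightest bin. Set against the median of its own bin, 19 of the 22 SR probe sets were still above 0, with a median of 0.32, while the hnRNPs had 0.029, the SNRP proteins 0.022 and the SF3A and SF3B subunits -0.086; this scale was chosen after the data were seen. The siLuc array of experiment 1 gave the lowest of the 6 values for 13 of the 22 SR probe sets, or 59.1%, and for 33.8% of all probe sets kept. Without experiment 1 the SR median was 0.25, with 19 of 21 probe sets above 0, where the median of all probe sets was -0.029. Within experiments 1, 2 and 3 the SR median was 0.66, 0.43 and 0.16. That of all probe sets was 0.082, -0.037 and -0.017. The part of this array in the results was not tested.

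**Figure D2:**
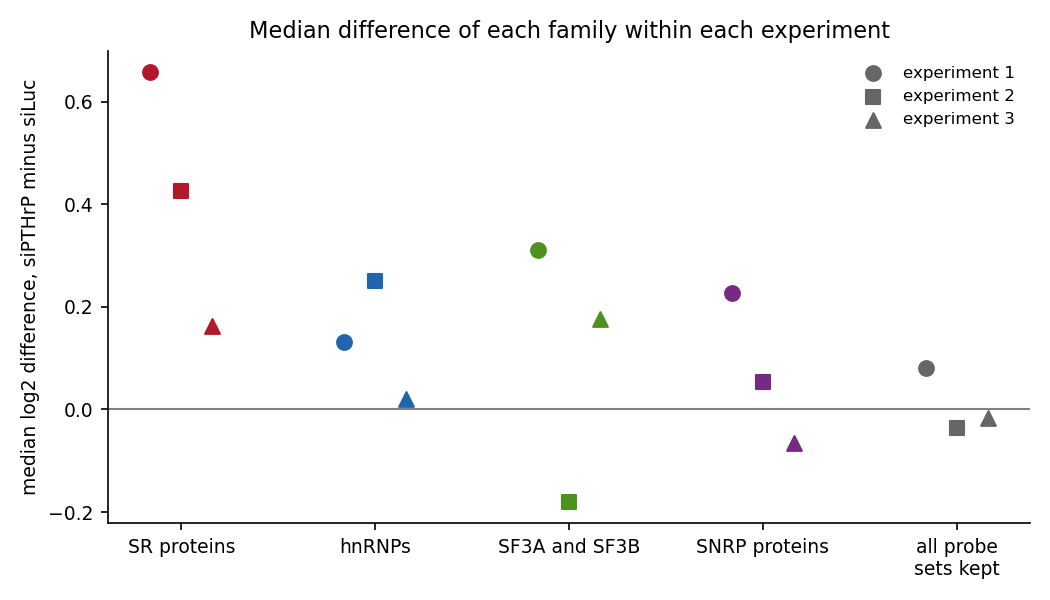
Median log2 difference (siPTHrP minus siLuc, vertical axis) of each family and of all probe sets kept, within each experiment; circles, squares and triangles stand for experiments 1, 2 and 3. The SR proteins were above 0 in all 3 experiments (0.66, 0.43 and 0.16), whereas SF3A and SF3B subunits were below 0 in experiment 2 (-0.18) and SNRP proteins in experiment 3 (-0.066).

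The SR proteins were represented by 9 genes and 26 probe sets, 22 of them above the filter. In 7 genes every such probe set was above 0, and in the other two, SRSF10 and SRSF7, 1 of 4 was below; with quantile normalization 19 of the 22 were above 0, and probe sets of SRSF3 and SRSF5 were among those below. Of the 5 SR probe sets whose names do not end in _x_at or _s_at, which mark possible cross-hybridisation, 3 were above 0. At an unadjusted p under 0.05 there were 8 SR probe sets with higher signal (36.4%) and 0 with lower signal, against 6.77% and 5.36% of all probe sets. The 8 came from 4 genes: SRSF1, SRSF10, SRSF3 and SRSF7. In 5 of the 22, or 22.7%, the groups did not overlap with siPTHrP higher, and in 0 with siPTHrP lower, against 8.94% and 9.69%. Of the 22, 12 (54.5%) had the same higher sign in all 3 experiments and 0 the same lower sign, against 19.1% and 19%. Probe sets of a gene measure transcripts of the same gene and are not independent.

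SRSF1, which selects 5' splice sites, prevents exon skipping and is known as a proto-oncogene, had 3 probe sets above the filter. On 208863_s_at the siLuc signals were 2851, 1286 and 1095 in experiments 1, 2 and 3, and the siPTHrP signals 2889, 2893 and 3775. No siPTHrP array overlapped the controls, but the pair of experiment 1 was nearly equal and the difference lay in experiments 2 and 3. The means were 1744 ± 964 and 3186 ± 510 (SD, n = 3), or 0.98 on the log2 scale (SE 0.34, unadjusted p = 0.0165, limma adjusted p = 0.365). On 211784_s_at siLuc gave 4546, 3527 and 3877 and siPTHrP 7323, 6743 and 4283, so that the siPTHrP array of experiment 3 lay among the controls. Its log2 difference was 0.59 (SE 0.21, limma adjusted p = 0.377). On 201742_x_at siLuc gave 5776, 5864 and 8482 and siPTHrP 10552, 7498 and 10431, or 0.51 on the log2 scale (SE 0.18, limma adjusted p = 0.378). Here too each experiment had the higher value with siPTHrP, and the groups overlapped through the siLuc array of experiment 3. Without experiment 1 the log2 fold change of 208863_s_at was 1.47 and it passed the threshold (limma adjusted p = 0.0368), as the only member of 96 tested, where 0.248% of all probe sets were called. Among its 13 alternatives the smallest adjusted p was 0.0285 and the largest 0.546.

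SRSF10, which represses splicing when it is dephosphorylated in mitosis and heat shock, showed the widest spread between probe sets of a gene. On 210178_x_at siLuc gave 192.5, 2523 and 2888 and siPTHrP 3974, 3296 and 4307. There was no overlap, and the siLuc array of experiment 1 was far below the other 5. The difference on the log2 scale was 1.74 (SE 0.64, limma adjusted p = 0.379), and without experiment 1 it was 0.48. Without experiment 2 or 3 it passed the threshold, at 2.42 and 2.32 (limma adjusted p = 0.00285 and 0.000145), both of which retain the low array. On 206095_s_at all pairs differed alike, with 2508, 2126 and 2079 for siLuc and 3890, 3269 and 2814 for siPTHrP. The groups did not overlap, at 0.56 on the log2 scale (SE 0.22, limma adjusted p = 0.395), and 0.53 without experiment 1. On 213594_x_at siLuc gave 1590, 1806 and 3021 and siPTHrP 2549, 2759 and 3033, with experiments 1 and 2 higher and experiment 3 nearly equal (0.43, SE 0.25, limma adjusted p = 0.488). The dim probe set 204299_at gave 1582, 255 and 205 with siLuc and 585, 438 and 275 with siPTHrP. It was higher with siPTHrP in experiments 2 and 3 and lower in experiment 1, for a log2 fold change of -0.090 (SE 0.68).

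**Figure D3:**
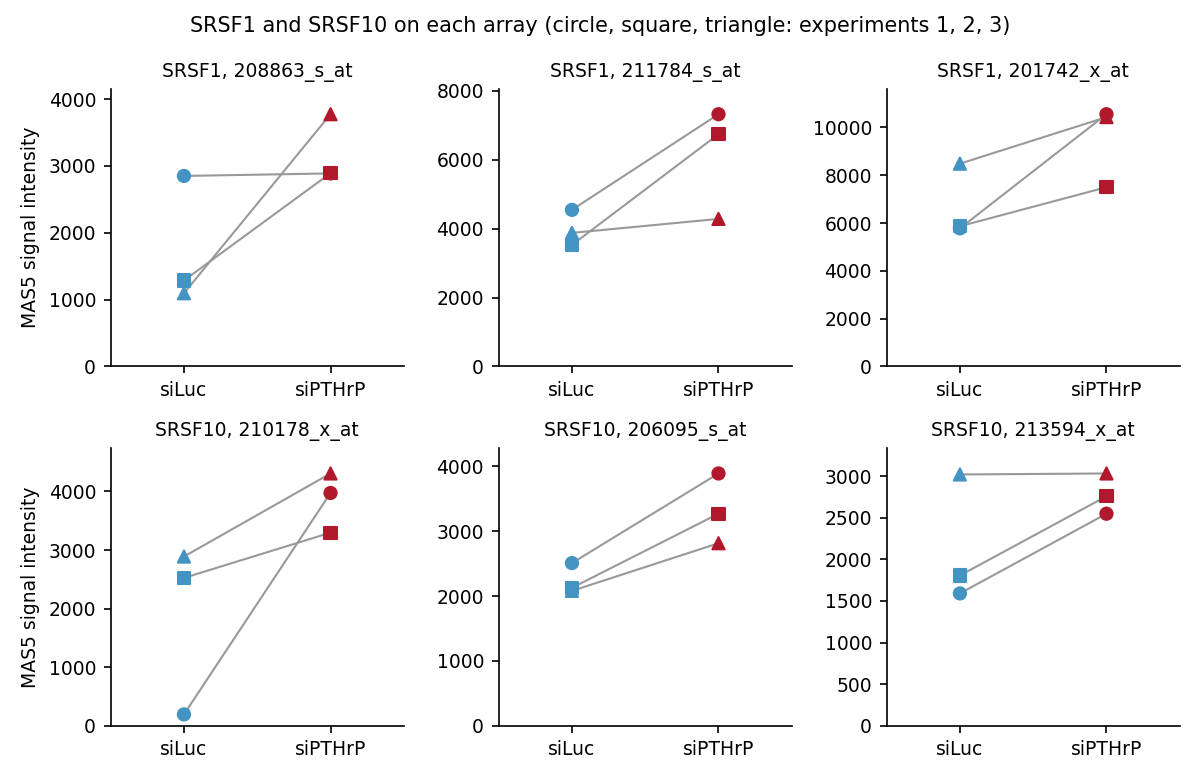
MAS5 signal intensity (vertical axis, linear, from 0) of 3 probe sets each of SRSF1 and SRSF10 with siLuc and siPTHrP; lines join the 2 arrays of an experiment, and circles, squares and triangles stand for experiments 1, 2 and 3. The siPTHrP array is the higher in every pair, by 0.019 (log2) in experiment 1 on SRSF1 208863_s_at and by 4.26 in experiment 1 on SRSF10 210178_x_at.

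SRSF3 and SRSF7, small SR proteins that also act as adaptors for mRNA export, differed between their probe sets. SRSF3 stood at 0.80 on 208673_s_at, where siLuc gave 922, 1490 and 1057 and siPTHrP 2474, 2070 and 1525, without overlap (SE 0.32, limma adjusted p = 0.396), and at 0.50 without experiment 1. On its brightest probe set, 208672_s_at, siLuc gave 13497, 11825 and 10028 and siPTHrP 10668, 10951 and 15228. The groups overlapped there, siPTHrP was lower in experiments 1 and 2 and higher in experiment 3, and the log2 fold change was 0.051 (95% interval of the fold 0.753 to 1.42; -0.14 with quantile normalization). The remaining probe set gave 0.13. SRSF7 stood at 0.50 on 201129_at, where siLuc gave 2279, 2799 and 2875 and siPTHrP 3559, 4526 and 3261 without overlap (SE 0.22, limma adjusted p = 0.409). Its other probe sets gave 0.72, 0.53 and -0.19, and without experiment 1 these were 0.27, -0.24 and -0.70.

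The remaining SR genes had no probe set at an unadjusted p under 0.05. SRSF6 and SRSF5, which bind exonic enhancers, had log2 fold changes of 0.36 and 0.84, and of 0.29 and 0.076. The SRSF6 value of 0.84 rested on the siLuc array of experiment 1, at 559.7 against 1355 to 2624 on the other 5, and was 0.24 without that experiment, where the other SRSF6 probe set gave 0.22. SRSF4, a long SR protein, stood at 0.41, SRSF8 at 0.40 and 0.18, and SRSF11, which interacts with other SR proteins at 3' splice sites, at 0.15. Without experiment 1, SRSF4 stood at 0.19, SRSF8 at 0.19 and 0.049, SRSF5 at 0.17 and 0.12, and SRSF11 at 0.37. Below the filter were 1 probe set of SRSF1, 1 of SRSF5 and 2 of SRSF11. With no filter these stood at -0.73, at -0.89, and at -1.10 and 0.18. The SRSF1 probe set, 201741_x_at, thus differed in sign from the others of its gene. It gave 2364, 127 and 283 with siLuc and 105, 413 and 418 with siPTHrP. It was lower with siPTHrP in experiment 1 and higher in experiments 2 and 3. With no filter 21 of the 26 SR probe sets were above 0, with a median of 0.38.

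The promoter sequences of the 4 SR genes with a probe set at an unadjusted p under 0.05 are shown because probe sets of these genes had the smallest p-values of the family. Short motifs were searched because PTHrP receptor signalling runs through cyclic AMP, whose response factor CREB binds the element TGACGTCA or its TGACG part. Each window is the 250 bases before the gene's annotated start (RefSeq, GRCh38.p14), in the direction of transcription. TGACG and the CCAAT box, on either strand, are in capitals. SRSF7 has 2 annotated starts, and the window of the downstream one is shown because it holds a motif; that of the upstream one, chr2:38751495-38751744, holds neither.
SRSF1, chr17:58007247-58007496, minus strand: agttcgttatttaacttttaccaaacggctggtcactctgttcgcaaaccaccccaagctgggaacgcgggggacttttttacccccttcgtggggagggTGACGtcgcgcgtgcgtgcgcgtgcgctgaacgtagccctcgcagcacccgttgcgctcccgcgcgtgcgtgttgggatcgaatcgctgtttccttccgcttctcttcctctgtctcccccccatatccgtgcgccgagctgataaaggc
SRSF10, chr1:23980328-23980577, minus strand: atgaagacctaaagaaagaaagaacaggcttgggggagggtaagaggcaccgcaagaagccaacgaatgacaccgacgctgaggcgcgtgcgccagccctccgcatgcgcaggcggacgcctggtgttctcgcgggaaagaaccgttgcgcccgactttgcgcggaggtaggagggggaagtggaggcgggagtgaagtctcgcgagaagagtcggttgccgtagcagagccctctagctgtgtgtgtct
SRSF3, chr6:36594112-36594361, plus strand: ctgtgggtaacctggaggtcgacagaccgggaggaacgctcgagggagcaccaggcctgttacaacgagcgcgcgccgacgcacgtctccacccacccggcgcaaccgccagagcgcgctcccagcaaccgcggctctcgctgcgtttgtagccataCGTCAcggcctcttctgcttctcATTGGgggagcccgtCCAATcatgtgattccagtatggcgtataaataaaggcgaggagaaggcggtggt
SRSF7, chr2:38751362-38751611, minus strand: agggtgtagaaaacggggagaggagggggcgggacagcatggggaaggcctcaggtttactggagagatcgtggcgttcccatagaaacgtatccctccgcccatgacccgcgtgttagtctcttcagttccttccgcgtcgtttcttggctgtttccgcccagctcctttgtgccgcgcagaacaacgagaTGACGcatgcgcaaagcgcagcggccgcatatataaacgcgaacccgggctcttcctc
The windows shown for SRSF1, SRSF3 and SRSF7 each held TGACG 1 time, at 150, 93 and 58 bases before the start, and that of SRSF3 held CCAAT 2 times. The window of SRSF10 held neither. Of all 35093 windows of this length in the table, 21.2% held TGACG and 32.0% held CCAAT on either strand. Among 63 windows of 43 member genes, several of which overlap, the shares were 36.5% and 38.1%, and the full element TGACGTCA was in 0 of 63, where 1.65% of all windows held it. A match is a description of the letters and does not show a bound site.

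The hnRNPs were represented by 19 genes and 49 probe sets, 44 of them above the filter, and of these 29 were above 0 with a median log2 fold change of 0.14. Relative to the median of all probe sets this was 0.11, and it was -0.032 with quantile normalization. At an unadjusted p under 0.05 there were 6 with higher signal, or 13.6%, and 1 with lower signal, against 6.77% and 5.36% of all probe sets. In 7, or 15.9%, the groups did not overlap with siPTHrP higher, and in 1 with siPTHrP lower, against 8.94% and 9.69%. Among the 18 genes above the filter, all probe sets were above 0 in 8, below 0 in 1, and on both sides in 9.

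In the A/B group, whose members bind exonic silencers and compete with SR proteins, 7 of 9 probe sets were above 0. HNRNPA0, which binds AU-rich elements, stood at 0.55 on 201054_at (SE 0.19, limma adjusted p = 0.362). There siLuc gave 3846, 4059 and 3964 and siPTHrP 6214, 6239 and 5066, with no overlap and a small spread among controls. Its other probe set, the brighter on average, gave -0.034, with 6673, 4020 and 4460 for siLuc and 5001, 4957 and 4498 for siPTHrP. The highest of these was the siLuc array of experiment 1, and without that experiment the value was 0.16. HNRNPAB stood at 0.50 without overlap of the groups (SE 0.21, limma adjusted p = 0.402), and at 0.24 without experiment 1. HNRNPA2B1 stood at 0.15, HNRNPA3 at 0.90, 0.39 and 0.34 on its probe sets, and HNRNPA1, the best known silencer protein, at 0.35 and -0.37. The HNRNPA3 value of 0.90 was -0.23 without experiment 1. The pseudogene HNRNPA3P1 and 1 further probe set of HNRNPA1 were below the filter.

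HNRNPC, which binds uridine tracts of nascent transcripts, had 4 probe sets, 2 on each side of 0. On 200014_s_at siLuc gave 4476, 5693 and 3360 and siPTHrP 6406, 7547 and 5902. There was no overlap, for a log2 fold change of 0.58 (SE 0.18, unadjusted p = 0.0119, limma adjusted p = 0.355). The other probe sets gave 0.14, -0.027 and -0.15, and the brightest of the gene, 214737_x_at, was that at -0.027. On the probe set at -0.15, 212626_x_at, siLuc gave 14381, 13205 and 12506 and siPTHrP 10474, 13645 and 12272. HNRNPD (AUF1), which governs decay of AU-rich mRNAs, lay between -0.10 and 0.14 on 5 probe sets, and its relative HNRNPDL between -0.47 and 0.23 on 5.

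HNRNPH1, which binds runs of guanosine, stood at 0.45 on its brightest probe set, 213619_at, with 13620, 13864 and 15004 for siLuc and 19771, 18106 and 20049 for siPTHrP. Every siPTHrP array exceeded every control, with means of 14163 ± 739 and 19309 ± 1051 (SD, n = 3; SE of the log2 fold change 0.15, limma adjusted p = 0.365). Its probe set 201031_s_at gave 0.50, also without overlap (limma adjusted p = 0.393). The dimmer 213470_s_at gave -0.39, with 1587, 732 and 1720 for siLuc and 1087, 1165 and 688 for siPTHrP. The groups overlapped on it, and experiment 2 went the other way. HNRNPF, of the same group, stood at 0.16, and HNRNPH3 between 0.0018 and 0.34 on 4 probe sets.

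HNRNPK, which binds cytidine-rich tracts, gave 14387, 12027 and 12454 with siLuc and 16873, 16709 and 15322 with siPTHrP on its brighter probe set. The groups did not overlap, at a log2 fold change of 0.33 (SE 0.16, 95% interval of the fold 0.986 to 1.61, limma adjusted p = 0.429), while its other probe set gave 0.048. HNRNPL, which binds CA repeats, stood at 0.0073 and -0.19. HNRNPM, which binds GU-rich motifs, stood at 0.50, with 4482, 3299 and 4736 for siLuc and 6506, 6055 and 5001 for siPTHrP. The groups did not overlap (limma adjusted p = 0.404). HNRNPU, a nuclear scaffold protein, lay between -0.35 and 0.19 on 3 probe sets, HNRNPUL1 at 0.56 and 0.23, and HNRNPUL2 at -0.32. The HNRNPUL1 value of 0.56 was -0.60 without experiment 1.

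HNRNPR, a relative of the translational regulator SYNCRIP, had probe sets that went in opposite directions in each experiment. On 208765_s_at siLuc gave 6224, 4592 and 7735 and siPTHrP 3796, 3349 and 3925. All siPTHrP arrays were below all controls, with means of 6184 ± 1572 and 3690 ± 302 (SD, n = 3) and a log2 fold change of -0.71 (SE 0.19, unadjusted p = 0.00504, limma adjusted p = 0.328). This was the smallest p of any member, and the value was -0.71 without experiment 1 as well. On 208766_s_at siLuc gave 4817, 5581 and 2817 and siPTHrP 6448, 5990 and 4054. Here siPTHrP was the higher in each experiment although the groups overlapped, for 0.35 (SE 0.19, limma adjusted p = 0.466). The signal ratio of the second probe set to the first was 0.774, 1.22 and 0.364 on the siLuc arrays and 1.70, 1.79 and 1.03 on the siPTHrP arrays. This pair was picked for its disagreement, so the ratio is given with no test. Which transcripts each probe set detects was not analysed here.

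**Figure D4:**
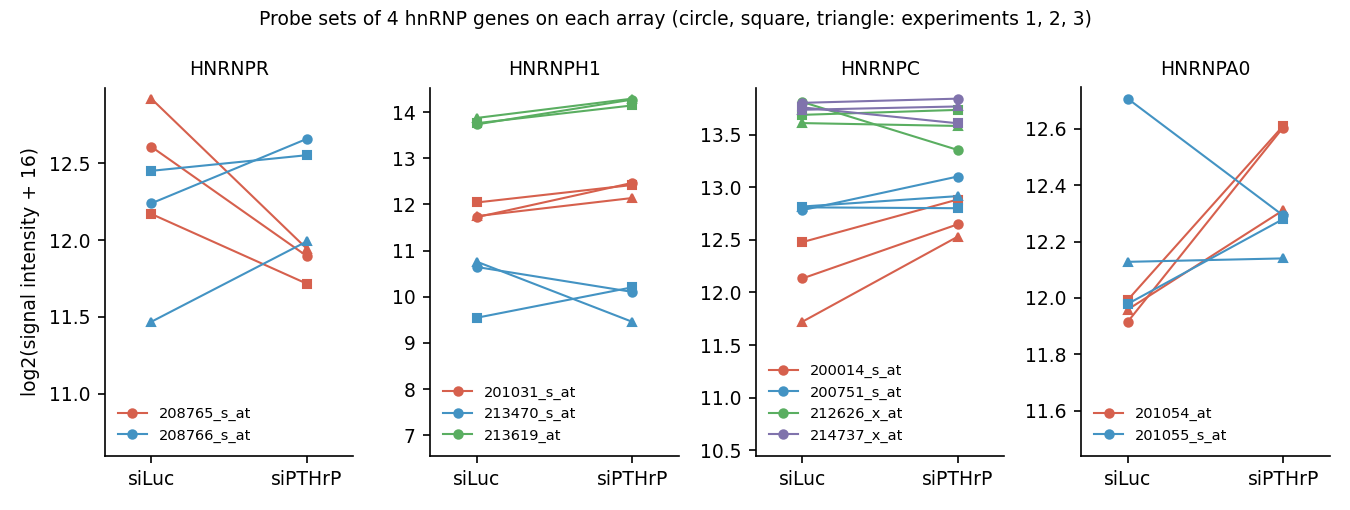
Signal as log2(intensity + 16) (vertical axis) of probe sets of HNRNPR, HNRNPH1, HNRNPC and HNRNPA0 with siLuc and siPTHrP; colours mark the probe sets above the filter, lines join the arrays of an experiment, and circles, squares and triangles are experiments 1, 2 and 3. For HNRNPR the red lines (208765_s_at, -0.71 on average) slope down and the blue lines (208766_s_at, 0.35) slope up in all 3 experiments.

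The SF3A and SF3B subunits, which hold the U2 particle on the branch point, were all above the filter, with 15 probe sets for 8 genes. Of these 8 were above 0, with a median of 0.0042, and -0.065 without experiment 1. At an unadjusted p under 0.05 there were 0 of these 15 in either direction, against 6.77% higher and 5.36% lower of all probe sets. SF3B1, the subunit that contacts the branch point helix and is mutated in several cancers, had the smallest p-values. On 211185_s_at siLuc gave 4913, 6863 and 5691 and siPTHrP 7942, 7924 and 5606, with experiment 3 nearly equal (0.29, SE 0.20, limma adjusted p = 0.529). On its brightest probe set, 201071_x_at, siLuc gave 6200, 9080 and 11305 and siPTHrP 8967, 9959 and 12020. The groups overlapped, at 0.25 (SE 0.17, 95% interval of the fold 0.909 to 1.56, limma adjusted p = 0.538) and 0.11 without experiment 1. Its other probe sets gave 0.075 and -0.086.

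SF3B2, which contacts the pre-mRNA near the branch point, gave 4503, 7033 and 7555 with siLuc and 5294, 6207 and 8587 with siPTHrP. The groups overlapped widely, at a log2 fold change of 0.079 (SE 0.18; -0.052 with quantile normalization) and a 95% interval of the fold from 0.797 to 1.40. SF3B3 lay on both sides of 0, at 0.25 and -0.28; on the second of these siLuc gave 1674, 1450 and 1687 and siPTHrP 1295, 1227 and 1442, without overlap. SF3B4 and SF3B5 stood at 0.0042 and -0.021. SF3A1 lay between -0.14 and -0.018 on 3 probe sets, SF3A3 at 0.24 (-0.070 without experiment 1), and SF3A2 at -0.0048 and 0.88. The higher SF3A2 value rested on the siLuc array of experiment 1, at 108 against 809 to 1463 on the other 5, and was -0.040 without that experiment.

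The SNRP proteins were represented by 11 genes and 16 probe sets, all above the filter, with 9 above 0 and a median of 0.14. Without experiment 1 there were also 9 above 0, with a median of 0.028. Those of the Sm ring, common to most spliceosomal particles, had 7 of 10 above 0 and a median of 0.25. Proteins specific to the U1 and U2 particles had 2 of 6 above 0 and a median of -0.042. The difference between these groups was not tested. SNRPB, which encodes the Sm proteins B and B', stood at 0.44 on 208821_at, with 9946, 11872 and 12161 for siLuc and 14005, 16435 and 15532 for siPTHrP. The groups did not overlap (SE 0.16, unadjusted p = 0.0197, limma adjusted p = 0.374). On its brighter probe set, 213175_s_at, siLuc gave 17299, 27030 and 29022 and siPTHrP 25347, 29332 and 36180. Each experiment was higher with siPTHrP, but the groups overlapped (0.33, SE 0.16, limma adjusted p = 0.445).

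SNRPD1 stood at 0.33 on 202690_s_at, with 5186, 5761 and 5008 for siLuc and 6603, 7659 and 5903 for siPTHrP, without overlap (SE 0.17, limma adjusted p = 0.455), and at 0.029 on its other probe set. SNRPD3 gave 4781, 5250 and 4548 with siLuc and 5576, 5747 and 5985 with siPTHrP, a narrow gap at 0.25 (limma adjusted p = 0.556). Among the D proteins only SNRPD2 was below 0, with 30930, 35620 and 51797 for siLuc and 28042, 28816 and 46663 for siPTHrP. It was lower in each experiment, with log2 differences of -0.14, -0.31 and -0.15, and the groups overlapped (-0.20, SE 0.16, 95% interval of the fold 0.682 to 1.11, limma adjusted p = 0.591). SNRPF stood at 0.31 (0.041 without experiment 1), SNRPG at -0.0061, and SNRPE at 0.25 and -0.16.

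Among the particle-specific proteins, SNRPA and SNRPC of U1 stood at -0.24 and -0.053 and SNRPB2 of U2 at 0.25 (0.045 without experiment 1). SNRPA1, the U2 protein A', lay on both sides of 0. On 215722_s_at siLuc gave 2766, 1667 and 2148 and siPTHrP 1192, 1656 and 1409. All siPTHrP arrays were below the controls, but in experiment 2 the log2 difference was only -0.0095, and the log2 fold change was -0.61 (SE 0.31, limma adjusted p = 0.453; -0.31 without experiment 1). Its other probe sets gave 0.39 and -0.030, and without experiment 1 -0.034 and -0.44.

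Probe sets of a gene often lay on both sides of 0. Of 28 genes with several probe sets above the filter, 16 did so: 2 of 7 SR genes, 9 of 13 hnRNP genes, 3 of 4 SF3A and SF3B genes and 2 of 4 SNRP genes. Whether this is more than among other genes of the array was not tested. Some of the values were close to 0, such as those of HNRNPL (0.0073 and -0.19). The lower HNRNPA0 value, -0.034, was 0.16 without experiment 1. In 2 of the 16, HNRNPR and SRSF10, the values lay at least 1 apart on the log2 scale, and SNRPA1 was just short of this at 0.997. For SRSF10 this rested on the siLuc array of experiment 1, the highest of the 6 on 204299_at and the lowest on 210178_x_at. In experiments 2 and 3 both probe sets were higher with siPTHrP, by 0.74 and 0.40 and by 0.38 and 0.57. Of the 28, those whose probe sets all stood on the higher side with at least 1 of them at an unadjusted p under 0.05 were SRSF1, SRSF3 and SNRPB. Taking the brightest probe set of each of the 46 genes, 35 were above 0 with a median of 0.23, and all 9 SR genes were above 0 with a median of 0.36. Of all probe sets kept, 52.5% were above 0. The values of the brightest probe sets were not set against probe sets of like intensity. That of SRSF10, 1.74, was 0.48 without experiment 1.

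**Figure D5:**
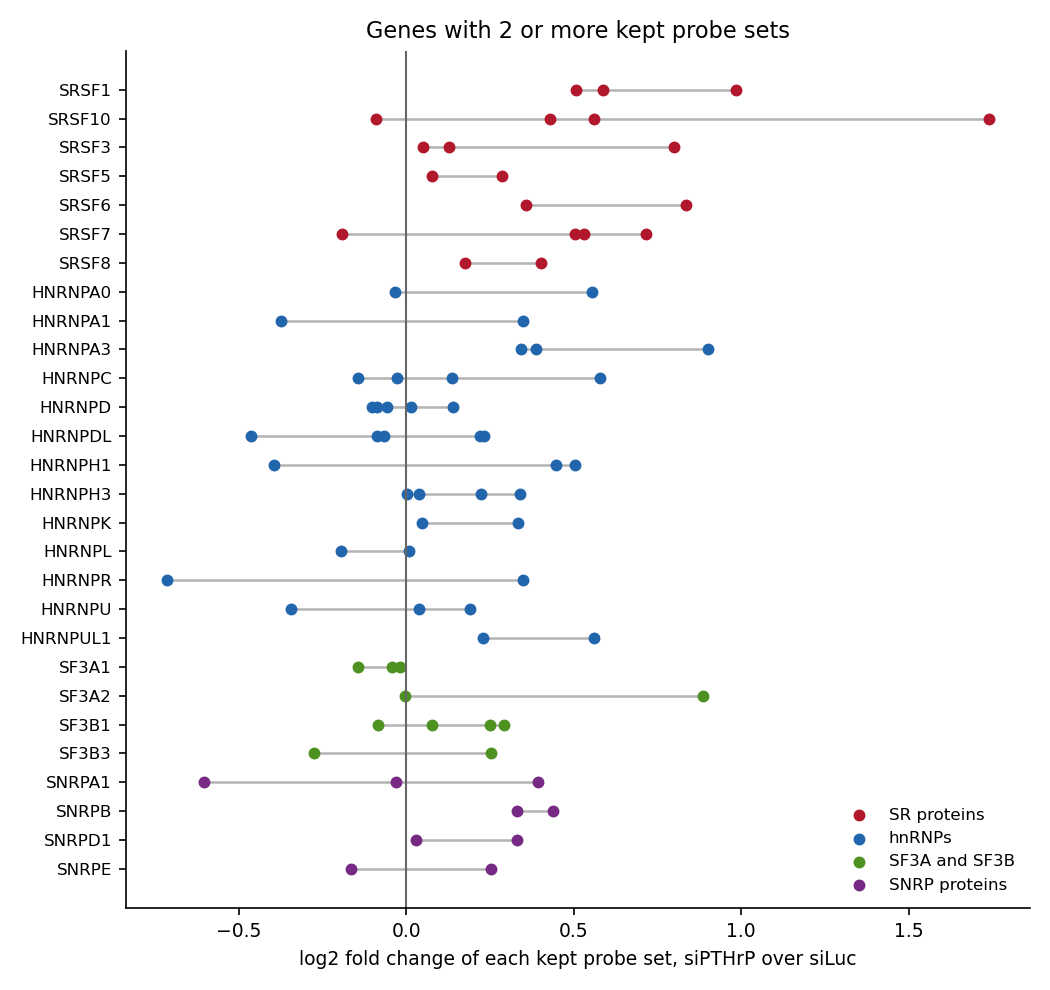
Log2 fold change (siPTHrP over siLuc, horizontal axis) of each probe set above the filter for the 28 genes with 2 or more; each row is a gene, colours mark families and grey lines join its lowest and highest value. SRSF1 lies wholly above 0 (0.51 to 0.98), whereas HNRNPR spans -0.71 to 0.35 and SRSF10 -0.090 to 1.74.

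Other splicing genes, from a list of 154 symbols of which 118 had a probe set above the filter, were above 0 in 84 of 118 on their brightest probe set. Their median was 0.14, and 0.059 for the same probe sets without experiment 1. Set against the median of its own intensity bin, the median was 0.10. The shares of all probe sets that follow are not matched for intensity. None passed in limma (smallest adjusted p = 0.314); at an unadjusted p under 0.05 there were 13 higher and 3 lower, where 6.77% and 5.36% of all probe sets kept were so called and 52.5% were above 0. Of 22 SR-related proteins and SR kinases, 14 were above 0 with a median of 0.076, and 0.11 without experiment 1. Those with the smallest p were TRA2B, an activator related to SR proteins, at 1.41-fold (7297, 8129 and 6679 with siLuc, 11227, 11479 and 8719 with siPTHrP), RNPS1, a splicing activator of the exon junction, at 1.38-fold, and U2AF1, which reads the 3' splice site, at 1.32-fold. The groups of TRA2B did not overlap. Of 32 other regulators of alternative splicing, 25 were above 0 with a median of 0.25, and 0.11 without experiment 1. They were led by SFPQ and its partner NONO, paraspeckle proteins, at 1.63-fold and 1.37-fold, and RBM10, which promotes exon skipping, at 2.74-fold.

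Of 51 other snRNP and spliceosome core proteins, 35 were above 0 with a median of 0.096, and 0.0085 without experiment 1. BUD31 of the activated spliceosome had the smallest p of the whole list, with 2410, 2574 and 3277 for siLuc and 4844, 5465 and 5479 for siPTHrP. The groups were far apart, at 1.92-fold (log2 fold change 0.94, SE 0.20, unadjusted p = 0.00103, limma adjusted p = 0.314), and 0.91 on the log2 scale without experiment 1. CHERP, associated with the U2 particle, stood at 1.76-fold and DHX15, a helicase that disassembles spliceosomes, at 1.75-fold. Of 13 exon junction, cap-binding and snRNP assembly proteins, 10 were above 0 with a median of 0.22, and 0.085 without experiment 1, led by the cap-binding subunit NCBP2 at 1.37-fold, UPF2 of nonsense-mediated decay at 3.15-fold and GEMIN6 of the SMN complex at 1.41-fold. The UPF2 value rested on the siLuc array of experiment 1, at 61.2 against 791 to 1431 on the other 5, and was 0.42 on the log2 scale without that experiment.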

How the data were processed

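Total RNA of 6 MDA-MB-231 samples, 3 per siRNA, was hybridised to Affymetrix HG-U133A arrays, per the labels. The deposited values were linear signal intensities made by the authors with MAS5, per the submitters' processing notes, with settings that the sources used here do not give. Trimmed means of 1500.4 to 1500.6 on every array show a common scaling, which was left as it was. Decimals occur in 90.1% of values on the siLuc 1 array and in 0% on the others.

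Groups came from titles and descriptions. A single siLuc sample has no number, so it was assigned to experiment 1, the only one left, and the sample titled siLuc 3 carries number 2 in its description; the title was followed. The design text pairs RNAs by experiment number, so the experiment was a block. Deviations from the group means correlated at -0.012, 0.16 and 0.16 within experiments 1, 2 and 3 and at -0.21 to 0.13 otherwise. Replicates are independent electroporations of 1 cell line.

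In R 4.3.3, 68 control probe sets were left out and limma 3.58.1 (lmFit, eBayes with an intensity trend; 2 residual and 7.17 prior degrees of freedom) was fitted to log2(intensity + 16) of probe sets at or above the 40th percentile of mean log2 intensity (8.61), two-sided, with Benjamini-Hochberg adjustment over 13329 probe sets and a threshold of 0.05. The steps were tested on simulated data in which all arrays had the same spread and there was no experiment effect. That test does not cover an array that stands apart. MAS5 subtracts mismatch signal, so dim probe sets are noisy.

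Members came from the array's annotation, with current RefSeq symbols through Entrez identifiers; 19 probe sets that list a member beside other genes were not used. Probe sets ending in _x_at or _s_at (67 of 106) can detect related transcripts or pseudogenes. Values in every array are given for the smallest p-values of each family (4, or 2 for SF3A and SF3B), its 2 brightest genes, and genes with probe sets on opposite sides of 0 by 1 or more; other members given in full were chosen after their values were seen. Members and lists were chosen with earlier results of these data known. Of the 154 other splicing genes, 124 were on the array by name, and the 3 with the smallest p per group were named.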

Additional observations from a re-analysis of the deposited data

How the results depend on the processing

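With no replicate block, 13 members had higher and 1 lower signal at an unadjusted p under 0.05, against 692 and 686 over the whole array. As in the paired analysis, 0 members were called in that fit. The count was also 0 with quantile normalization or median centring, with offsets of 1 or 64, without the filter or the trend, and with a filter at the 60th percentile. Members called were 1 with estimated array weights (SRSF1, 208863_s_at, among 177 over the whole array), and 1 to 2 when 1 experiment was left out (33 to 215 over the whole array): SRSF1 without experiment 1, SRSF10 (210178_x_at) without experiment 2, and SRSF10 and SRSF7 (214141_x_at) without experiment 3. Such fits lean on the prior variance. Without _x_at and _s_at probe sets 5 were called over the whole array, none a member, and the members' median log2 fold change was 0.0073 over 33 probe sets. Over 15 alternatives the SR median lay between 0.25 and 0.59, the hnRNP median between 0.0073 and 0.22, the SNRP median between 0.022 and 0.23 and that of SF3A and SF3B between -0.086 and 0.21. The median of all probe sets kept was 0.11 with median centring and -0.16 with no filter. Of 289 recomputed values of the 22 probe sets that the naming rule picked, 7 changed sign, in probe sets between -0.090 and 0.079: SRSF10 204299_at (0.21 with quantile normalization, 0.42 with array weights), SRSF3 208672_s_at (-0.14 with quantile normalization, -0.22 without experiment 3) and SF3B2 (-0.052 with quantile normalization, -0.026 with array weights, -0.15 with siLuc 1 left out and no replicate block). Of the other 75 members tested, 21 changed sign without experiment 1, of which 4 had stood above 0.5 (HNRNPA3, HNRNPUL1, SF3A2 and SRSF7, 1 probe set each). The cause of these shifts was not tested. With no trend, 1 of the 97 members was higher and 1 lower at an unadjusted p under 0.05, against 460 and 865 over the whole array. With quantile normalization 6 members were higher and 1 lower, against 710 and 528 over the whole array. Dim signals limit members below the filter, which lay between 9 and 621 outside the siLuc array of experiment 1.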
